A study of Mus musculus with 768 samples.

Results

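E-selectin, the product of Sele, is the adhesion molecule that venule endothelium puts on its surface when it is activated by cytokines, and Sele was used to divide the MECA-79-positive endothelial cells of PyMT tumours into a Sele-positive and a Sele-negative class. Of 98 tumour cells kept, 58 had Sele at 10 CPM (a gene's counts scaled to the total of its cell) or more and 40 were below it, out of 561 cells kept in the whole series of 768 wells. The title of the series concerns cancer immunotherapy and the formation of high endothelial venules (HEVs), the vessels through which lymphocytes leave the blood. It holds 3 groups of mouse cells, all sorted as CD45-negative and CD31-positive. TU_HEV (plates pool3 and pool4) bind MECA-79 and came from tumours of the PyMT breast cancer model, and both classes described here come from them. TU_EC are MECA-79-negative cells of PyMT tumours (poolA to poolD), and LN_HEV are MECA-79-positive cells of lymph node (pool1 and pool2). MECA-79 binds sulfated glycans that capture lymphocytes, so every TU_HEV cell of either class was chosen for that epitope. The gate CD45- CD31+ MECA79+ was set after beads had removed cells carrying CD45 or EpCAM. The sample labels name no age, strain, treatment or animal, so whether the mice were treated is not given here. TU_HEV is therefore 1 sample, its 2 plates are shown side by side, and no p-value is given, because cells are not replicates.

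Leukocytes are caught from the flowing blood by P-selectin and E-selectin on venule endothelium and then held by ICAM-1 and VCAM-1. The promoters of these genes are textbook targets of NF-kB, the transcription factor that tumour necrosis factor and interleukin 1 switch on. Endothelium of capillaries, arteries and sprouting tips carries other sets of genes, for lipid uptake, Notch signalling and invasion of matrix. A high endothelial cell is a kind of venule cell that also makes the sulfated sugar epitope.

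The sequences that the classes turn on are those just upstream of the adhesion and cytokine genes, shown because Sele chose the cells and the others differed between the classes. Sele spans chromosome 1 from 164048234 to 164057677 on the plus strand (GRCm38), and Selp lies on the same strand from 164115264 to 164150026. The stretches are RefSeq promoters (GRCm38.p6), each from 250 bases before to 50 after a start of transcription, printed 5′ to 3′. Capitals mark letters of either of 2 NF-kB patterns, GGGNNNTNC and GGNNNTTCC, read on both strands. The second was added after the Sele promoter had been read, and the 2 can overlap, as they do in Il6.
Sele (chr1:164047984-164048283, plus strand): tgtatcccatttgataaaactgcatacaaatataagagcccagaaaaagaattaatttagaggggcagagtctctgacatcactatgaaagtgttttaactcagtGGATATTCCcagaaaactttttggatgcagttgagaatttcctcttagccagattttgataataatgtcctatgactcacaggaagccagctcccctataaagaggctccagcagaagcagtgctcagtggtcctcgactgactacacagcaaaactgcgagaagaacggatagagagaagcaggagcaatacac
Selp (chr1:164115014-164115313, plus strand): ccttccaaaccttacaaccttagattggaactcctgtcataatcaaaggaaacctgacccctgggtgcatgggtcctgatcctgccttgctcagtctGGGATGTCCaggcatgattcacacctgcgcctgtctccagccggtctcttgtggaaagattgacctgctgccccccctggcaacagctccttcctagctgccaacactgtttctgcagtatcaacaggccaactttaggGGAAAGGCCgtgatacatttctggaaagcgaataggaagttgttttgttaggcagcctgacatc
Icam1 (chr9:21015690-21015989, plus strand): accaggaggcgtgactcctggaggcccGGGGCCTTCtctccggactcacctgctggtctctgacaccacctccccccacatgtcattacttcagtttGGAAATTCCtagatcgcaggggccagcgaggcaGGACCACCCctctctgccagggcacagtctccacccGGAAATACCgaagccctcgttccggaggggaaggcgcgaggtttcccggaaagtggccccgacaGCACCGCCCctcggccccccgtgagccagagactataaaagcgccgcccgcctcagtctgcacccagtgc
Il6 (chr5:30012864-30013163, plus strand): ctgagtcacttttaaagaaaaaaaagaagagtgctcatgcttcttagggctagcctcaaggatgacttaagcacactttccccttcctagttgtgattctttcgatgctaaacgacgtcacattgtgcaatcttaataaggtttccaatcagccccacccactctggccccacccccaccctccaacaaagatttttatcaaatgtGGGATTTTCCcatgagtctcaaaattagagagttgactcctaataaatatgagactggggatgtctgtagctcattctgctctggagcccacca
The Sele stretch holds GGATATTCC, the STAT letters TTCCCAGAA, which overlap it, the interferon response letters GAAAAAGAA, the AP-1 letters TGACTCA and, nearest the start, the TATA letters TATAAA. It holds no match to the first NF-kB pattern, which says only that those letters are not in this window. The first pattern is found in 46.9% of the 32851 promoters of the table, the second in 18.5%, AP-1 (TGANTCA) in 7.81%, STAT (TTCNNNGAA) in 8.30%, the interferon pattern (GAAANNGAA) in 8.56% and the TATA letters in 13.6%. All were read on both strands. Of the 12 genes named below as higher in Sele-positive cells, 9 had a promoter in the table, and 7, 3 and 4 of the 9 held the first, the second and the AP-1 letters, while 1, 2 and 0 held the STAT, interferon and TATA letters. Of the 12 named as lower, 10 had one, and 5, 1 and 1 of the 10 held the first, the second and the AP-1 letters, while 2, 0 and 1 held the STAT, interferon and TATA letters. The counts are per gene, while the shares of the table are per promoter. The 9 higher genes had 10 promoters, because Tfe3 had 2, and it was counted if either held the letters. These are matches of letters and not measured binding.

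The members were chosen by the level of Sele, so its values are a description. In the Sele-positive cells it ranged from 10.3 to 5165 CPM with a median of 467 CPM, with a median of 449.9 CPM in pool3 and 467 CPM in pool4. Of the 40 Sele-negative cells, 39 had no count of Sele, and the other held 3 counts, or 6.37 CPM. The lowest Sele-positive cells, just inside the threshold, stood at 10.3, 14.3 and 29.6 CPM. Few cells lay near the threshold. The Sele-positive class was 28 of 50 cells in pool3 and 30 of 48 in pool4. That is 59.2% in all, with an exact binomial interval at 95% of 48.8 to 69.0, which covers counting error only, as do all intervals here.

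**Figure D1:**
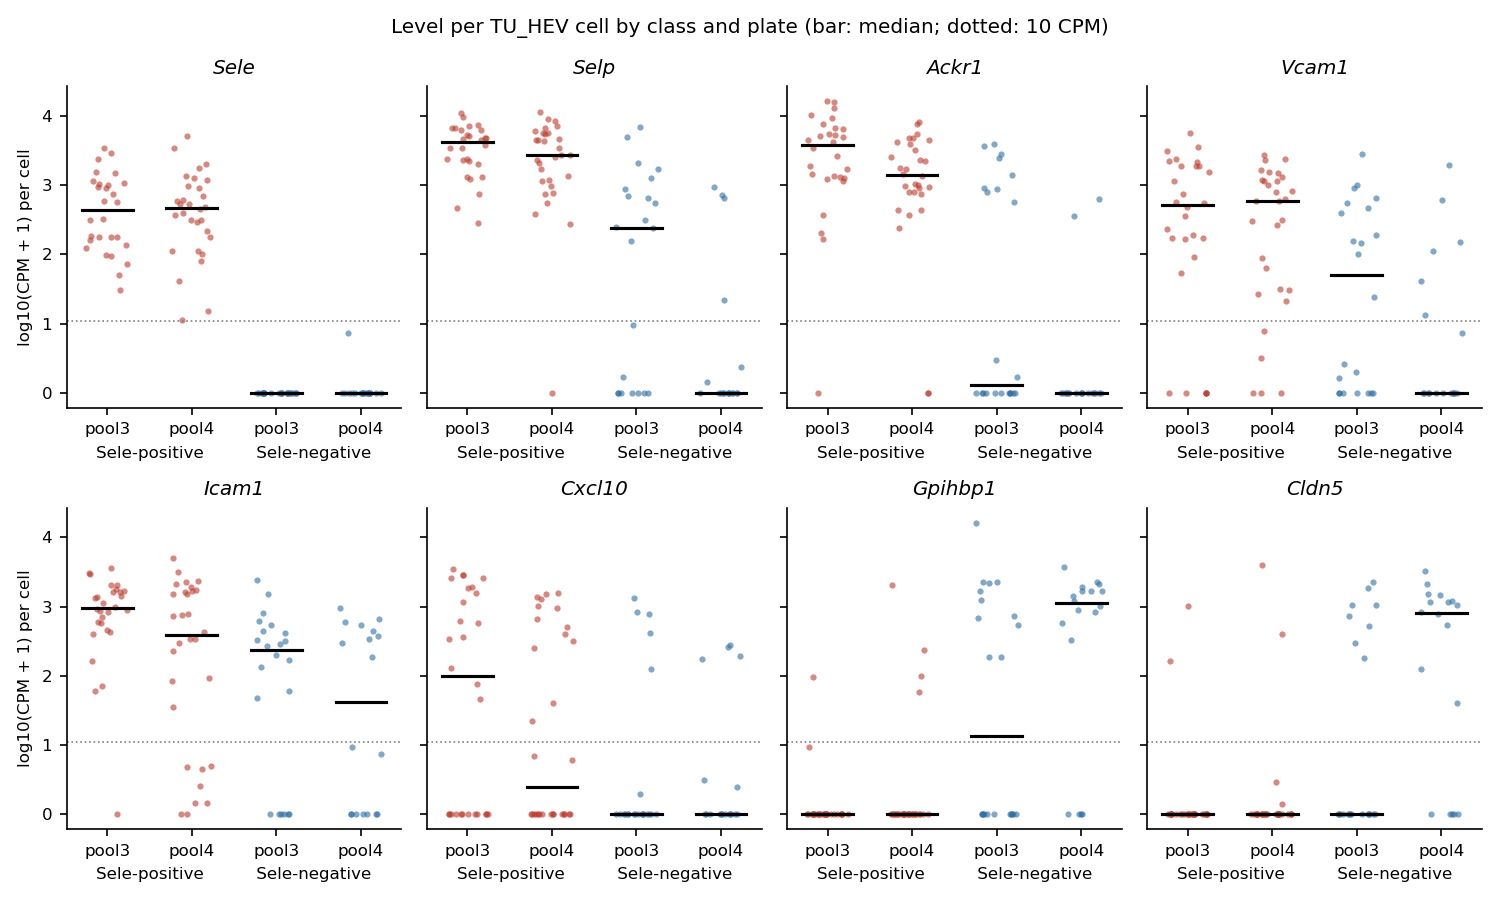
Level of 8 genes in each TU_HEV cell, as log10(CPM + 1), with Sele-positive cells (red) left of Sele-negative cells (blue), each by plate; bars are medians and the dotted line is 10 CPM. Sele chose the classes; Selp and Ackr1 lie high in nearly every Sele-positive cell and in part of the Sele-negative cells, while Gpihbp1 and Cldn5 are at or near 0 in most Sele-positive cells.

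The 2 classes differed in depth, which moves with every comparison below. Sele-positive cells had a median of 1470492 counts in pool3 and 2069152 in pool4, against 1192981 and 1243558.5 in Sele-negative cells. With every cell thinned to 100000 counts they had a median of 3360 genes with a count, against 2554.5 in Sele-negative cells (4080 against 3077.5 before thinning). Mitochondrial genes took a median of 3.28% of counts in Sele-positive cells and 4.15% in Sele-negative cells. For each class the counts of its cells were added up, 95330684 in Sele-positive and 50884766 in Sele-negative cells, and a class under 3 counts was set to that floor. Both classes were endothelial by the markers outside the rule: the 8 genes Kdr, Cldn5, Tek, Esam, Ramp2, Ecscr, Robo4 and Erg summed to 3253 CPM in Sele-positive and 3989 CPM in Sele-negative cells. Of these, Cldn5 was the one that was at least 2-fold apart. Markers of epithelium and tumour (6 genes), mural cells and fibroblasts (6), myeloid cells (6), B cells (3), T cells (5) and leukocytes in general (6) had no member at 20 CPM in either class. Their sums were at most 3.18 CPM in Sele-positive and 6.01 CPM in Sele-negative cells, and all 6 epithelial and all 5 T cell markers had 0 counts in both. Summed over a list in single cells, the leukocyte markers ranged from 0 to 76.2 CPM in Sele-positive cells and were 0 in every Sele-negative cell, and the myeloid markers reached 172.5 CPM in a Sele-positive and 192.6 CPM in a Sele-negative cell. The mural markers reached 85.1 CPM in a Sele-positive and 50.5 CPM in a Sele-negative cell, and the B cell markers 107.1 and 0.752 CPM. Of 6 lymphatic markers only Flt4, which capillary and tip endothelium can also express, passed 20 CPM in a class, and the list summed to 26.1 CPM in Sele-positive and 50.7 CPM in Sele-negative cells. The erythroid and platelet markers summed to 23.9 CPM in Sele-positive and 4.78 CPM in Sele-negative cells, and their part in the results was not tested. Of the 98 TU_HEV libraries, 16 (11 Sele-positive and 5 Sele-negative) had their counts contained, gene by gene, in 11 LN_HEV libraries, so that at least 95% of the genes of the TU_HEV library had as many counts or more in the LN_HEV library. No TU_HEV library contained another. Without these 16 the log2 ratio was 3.06 for Selp, 3.07 for Ackr1, 1.61 for Vcam1, 2.68 for Cxcl10 and -4.01 for Gpihbp1.

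Of 7590 genes at 20 CPM or more in a class, Sele left out, 951 were at least 2-fold higher in Sele-positive cells over both plates (12.5%) and 1104 at least 2-fold lower (14.5%). In pool3, in pool4 and in both together, 452 were at least 2-fold higher (5.96%) and 498 at least 2-fold lower (6.56%). The median log2 ratio of all genes, Sele-positive over Sele-negative, was -0.02. These percentages are the background for the counts of genes in each group below. The counts per plate and their dependence on single cells are given with the limits at the end.

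Venule genes of leukocyte capture were among the groups on the higher side. Selp, which encodes the P-selectin that venule endothelium stores and brings to its surface, stood at 4433 CPM in pool3 and 3732 CPM in pool4 in Sele-positive cells, against 810.5 and 132.1 CPM in Sele-negative cells. Per cell it ranged from 0 to 11426 CPM with a median of 3444 CPM in Sele-positive cells, against 0 to 6952 CPM with a median of 0.571 CPM in Sele-negative cells. The Sele-positive cells lay high with 1 exception, and the Sele-negative cells spread from 0 to 6952 CPM, so the classes overlapped in part. Selp was at 10 CPM or more in 57 of 58 Sele-positive and 17 of 40 Sele-negative cells, and with thinned cells in 57 and 18. It was 8.62-fold higher in Sele-positive cells (8.51 to 8.74), 5.47-fold in pool3 and 28.2-fold in pool4.

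Ackr1, the chemokine-binding receptor that marks post-capillary venules, had 5370 and 2268 CPM in Sele-positive cells of pool3 and pool4, against 881.8 and 59.9 CPM in Sele-negative cells. It reached 10 CPM in 55 of 58 Sele-positive and 11 of 40 Sele-negative cells (55 and 12 after thinning), and was 7.64-fold higher over both plates (7.54 to 7.74). Icam1, the ligand of leukocyte integrins, had 1309 and 1074 CPM in Sele-positive cells, against 396.6 and 254.7 CPM in Sele-negative cells, a 3.61-fold difference (3.55 to 3.67). Vcam1, the ligand of the lymphocyte integrin VLA-4, had 1361 and 720.6 CPM in Sele-positive cells, against 289.1 and 254.9 CPM in Sele-negative cells, a 3.63-fold difference (3.56 to 3.69). For both genes the classes overlapped: Icam1 was at 10 CPM or more in 49 of 58 Sele-positive and 25 of 40 Sele-negative cells, and Vcam1 in 48 of 58 and 18 of 40 (50 and 26, 49 and 18 after thinning). Of the 12 genes of venous identity and leukocyte adhesion, all measured, 7 were at least 2-fold higher and 1 at least 2-fold lower in Sele-positive cells, and the higher ones in both plates were Selp, Ackr1, Icam1 and Vcam1. The list's median log2 ratio was 1.14 (0.80 in pool3, 1.79 in pool4). Nr2f2, the transcription factor of venous identity, was 2.09-fold higher in Sele-positive cells over both plates but 1.46-fold in pool3, and Vwf, the clotting protein stored with P-selectin, was 1.96-fold higher. Icam2, Cd47 and Ephb4 lay between -0.42 and 0.26 on the log2 scale. Madcam1, the gut addressin, was the member on the lower side: it was at 10 CPM or more in 3 Sele-positive and 2 Sele-negative cells, and without the highest cell its log2 ratio was 4.21 in place of -2.45.

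The acute cytokine genes Csf3 and Il6 and the chemokine gene Cxcl10 were higher as well. Csf3, which encodes the granulocyte growth factor G-CSF, had 633 and 181.2 CPM in Sele-positive cells of pool3 and pool4, against 76.6 and 0 CPM in Sele-negative cells. It was found in few cells, 18 of 58 Sele-positive and 1 of 40 Sele-negative cells at 10 CPM or more, the same after thinning, and was 9.75-fold higher over both plates (9.31 to 10.2). A single Sele-negative cell at 1877 CPM carries all counts of Csf3 in that class. Without the libraries contained in LN_HEV libraries the log2 ratio of Csf3 was 1.93 in place of 3.29. Il6, encoding interleukin 6, had 501.2 and 291.2 CPM in Sele-positive cells, against 49.2 and 119.6 CPM in Sele-negative cells. It reached 10 CPM in 30 of 58 Sele-positive and 9 of 40 Sele-negative cells (31 and 9 after thinning), and was 4.45-fold higher (4.31 to 4.595). Cxcl10, the chemokine that draws CXCR3-bearing T cells, had 1001 and 397.8 CPM in Sele-positive cells, against 131.03 and 58.8 CPM in Sele-negative cells, a 6.86-fold difference (6.66 to 7.06) with 29 of 58 and 9 of 40 cells at 10 CPM or more (30 and 9 after thinning). For all 3 genes the median Sele-negative cell was at 0. Some cells of each class were high for Il6 and Cxcl10, and for Csf3 some Sele-positive cells and 1 Sele-negative cell. The neutrophil chemokine Cxcl1 differed by 2.52-fold in pool3 and 1.09-fold in pool4, and Cxcl9, a second CXCR3 ligand, had 405 CPM in Sele-positive and 630.1 CPM in Sele-negative cells. Of the 14 neutrophil chemokines and acute cytokines 4 were measured, of which 2 were at least 2-fold higher in both plates and none lower.

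Some receptors of tumour necrosis factor and interleukin 1 were higher, while the NF-kB feedback genes passed 2-fold no more often than all genes. Tnfrsf1b, a receptor of tumour necrosis factor, had 54.8 and 68.0 CPM in Sele-positive cells of pool3 and pool4, against 2.83 and 23.6 CPM in Sele-negative cells. Il1r1, the receptor of interleukin 1, had 337.2 and 254.8 CPM, against 111.5 and 132.6 CPM. Tnfaip3, whose product A20 shuts NF-kB signalling off, had 603 and 464.9 CPM in Sele-positive cells, against 181.99 and 154.3 CPM in Sele-negative cells, a 3.11-fold difference (3.04 to 3.18). Of 13 measured receptors and adaptors of tumour necrosis factor, interleukin 1 and lymphotoxin, 6 were at least 2-fold higher in Sele-positive cells, 2 of them in both plates, and none lower, with a median log2 ratio of 0.95. Of 16 NF-kB feedback and signalling genes, 2 (Tnfaip3 and Birc3) were at least 2-fold higher, 1 of them in both plates, and 1 (Tnip1) lower, with a median of 0.47. Their share at least 2-fold higher equals the 12.5% of all genes. Nfkbia, the inhibitor that NF-kB itself induces, differed between plates: 3165 CPM in Sele-positive against 905.4 CPM in Sele-negative cells in pool3, and 2111 against 2359 CPM in pool4. Irf1, an interferon response factor, was likewise 5.06-fold higher in pool3 and 1.53-fold in pool4.

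Lrg1, Il6st and Lifr, of the interleukin 6 receptor family and its targets, were at 10 CPM or more in 58, 57 and 54 of the 58 Sele-positive cells, against 25, 28 and 17 of the 40 Sele-negative cells (58, 57 and 54 against 27, 30 and 18 after thinning). Lrg1, a secreted glycoprotein of venules, had 5981 and 4431 CPM in Sele-positive cells of pool3 and pool4, against 2738 and 1281 CPM in Sele-negative cells, and ranged from 98.04 to 15169 CPM with a median of 3532 CPM in single Sele-positive cells, against 0 to 8747 CPM with a median of 134.3 CPM in Sele-negative cells. Il6st, the shared signal chain gp130, was 2.61-fold higher in Sele-positive cells (2.58 to 2.64), Lifr, the receptor of leukaemia inhibitory factor, 2.58-fold (2.53 to 2.62) and Lrg1 2.54-fold (2.52 to 2.55). The 11 measured members had a median log2 ratio of 0.67 (0.85 in pool3, 0.47 in pool4). Of these, Lrg1, Il6st and Lifr were at least 2-fold higher over both plates together and none was lower. Only 2 of the 3 were 2-fold higher in each plate as well. Stat3, the transcription factor they act through, was at 0.18 and Socs3, its feedback inhibitor, at 0.87.

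Part of the machinery of the MECA-79 epitope and of related selectin ligands was also higher. Chst4, the sulfotransferase that makes the epitope in HEVs, had 397 and 202.8 CPM in Sele-positive cells of pool3 and pool4, against 122.4 and 7.05 CPM in Sele-negative cells, a 4.43-fold difference (4.27 to 4.599). Of the 41 cells with Chst4 at 10 CPM or more 35 were Sele-positive, or 85.4% (exact interval 70.8 to 94.4), against 23 of the 57 cells below it, or 40.4% (27.6 to 54.2). The cells with Chst4 had a median of 1704219 counts and those without 1213189. B3gnt3, which extends the glycan that carries the sulfate, was 2.63-fold higher. St3gal4, a sialyltransferase of selectin ligands and not a maker of the MECA-79 epitope itself, was 2.37-fold higher. Chst2, the second sulfotransferase, had 54.2 against 33.3 CPM. The list also holds other sialyl- and fucosyltransferases. Of its 6 measured members Chst4, B3gnt3 and St3gal4 passed 2-fold in both plates and none was lower, with a median of 0.97. Glycam1, the secreted mucin of lymph node HEVs, had no stable direction: 243.7 CPM in Sele-positive against 73.5 CPM in Sele-negative cells in pool3, and 63.6 against 141.7 CPM in pool4. Cd34, a surface mucin that MECA-79 can decorate, was at 0.40 on the log2 scale. The list of HEV mucins, addressins and other HEV genes, which holds Glycam1, Cd34, Madcam1 and C1s1, was mixed. Of its 11 measured genes 3 were at least 2-fold higher, 2 of them in both plates. Another 2 were at least 2-fold lower, 1 of them in both plates, and the median was 0.40.

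Of the 6 measured genes of eicosanoid, histamine and vasoactive mediators, 3 were at least 2-fold higher in Sele-positive cells, 2 of them in both plates, and 1 (the endothelin receptor Ednrb) lower, with a median log2 ratio of 0.92. Hdc, the enzyme that makes histamine, had 498.6 and 400.5 CPM in Sele-positive cells of pool3 and pool4, against 159.5 and 0 CPM in Sele-negative cells. Ptgs1, the constitutive cyclooxygenase, had 192.8 and 202.7 CPM, against 56.2 and 41.7 CPM, and was at 10 CPM or more in 42 of 58 Sele-positive and 7 of 40 Sele-negative cells (43 and 7 after thinning). C1ra, a protease of the first complement component, had 295.6 and 174.3 CPM in Sele-positive cells, against 51.2 and 7.13 CPM in Sele-negative cells, with 40 of 58 and 4 of 40 cells at 10 CPM or more (41 and 4 after thinning). No list of complement genes was used. C1s1, the partner protease of C1ra and a member of the mixed HEV list above, was 3.72-fold higher (3.59 to 3.86). It was picked after its values had been seen.

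The 12 genes with the highest and the 12 with the lowest ratio were named by a rule, and these extremes are a description of the genes it selects. On the higher side they were Masp1, Lias, Thsd7a, Msmo1, Csf3, Plk3, Tfe3, Cd14, Selp, Fbn1, C1ra and Ackr1. Masp1, a protease of the lectin pathway of complement, had 29.4 and 64.6 CPM in Sele-positive cells of pool3 and pool4. It had no count in either plate of Sele-negative cells. Against the floor of 3 counts over the class it was 849-fold higher, and the lower end of its interval was 690.1-fold. Cd14, the co-receptor of bacterial lipopolysaccharide, had 410.02 and 324.7 CPM, against 47.5 and 35.6 CPM. Thsd7a, a membrane protein with thrombospondin repeats, was 44.1-fold higher (34.4 to 57.5), Lias, the enzyme of lipoic acid synthesis, 222.5-fold (127.3 to 431), and Msmo1, a cholesterol synthesis enzyme, 14.7-fold (12.9 to 16.9), all at 52.5 to 64.0 CPM in Sele-positive cells and in 18 to 20 of the 58 at 10 CPM or more (18 to 21 after thinning). These low genes were absent from most Sele-positive cells, unlike Selp and Ackr1. Plk3, a stress-activated kinase, Tfe3, a transcription factor of lysosomal genes, and Fbn1, which encodes fibrillin, were 8.83-fold, 8.80-fold and 8.31-fold higher.

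**Figure D2:**
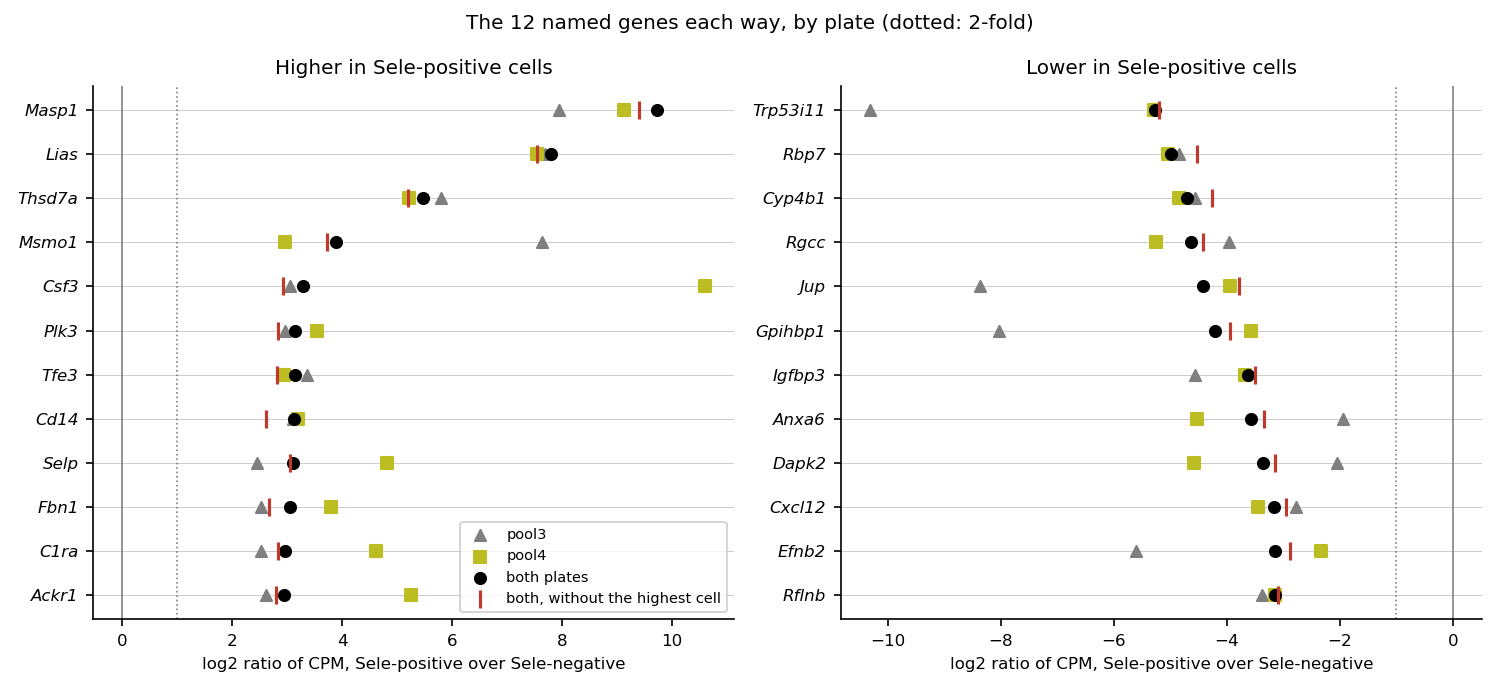
log2 ratio of CPM, Sele-positive over Sele-negative TU_HEV cells, of the 12 genes named each way, for each plate, for both plates, and without the highest cell of the higher class; the dotted lines are 2-fold. All 24 lie past 2-fold in both plates; classes with under 3 counts are set to that floor, as for Masp1 in both plates and Csf3 in pool4.

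Genes of capillaries stood on the opposite side. Gpihbp1, which anchors lipoprotein lipase to capillary endothelium, had 4.00 and 99.5 CPM in Sele-positive cells of pool3 and pool4, against 1047 and 1179 CPM in Sele-negative cells. Per cell it ranged from 0 to 2042 CPM with a median of 0 in Sele-positive cells, against 0 to 16023 CPM with a median of 627.7 CPM in Sele-negative cells. Most Sele-positive cells had no count of it, and the Sele-negative cells were either at 0 or high, so the ranges overlapped. It reached 10 CPM in 5 of 58 Sele-positive and 25 of 40 Sele-negative cells (6 and 25 after thinning), and was 18.6-fold lower in Sele-positive cells (18.1 to 19.1). Rgcc, a cell cycle regulator of capillary endothelium, had 27.2 and 14.0 CPM in Sele-positive cells, against 427 and 535.8 CPM in Sele-negative cells. Lpl, lipoprotein lipase itself, had 1.90 against 419 CPM over both plates, Aqp7, the glycerol channel, 1 count against 9513 counts, and Timp4, an inhibitor of matrix proteases, no count against 2388 counts. Of the 12 capillary genes, all measured, 6 were at least 2-fold lower in Sele-positive cells, 5 of them in both plates, and none was higher, with a median log2 ratio of -1.04 (-1.68 in pool3, -0.80 in pool4). The fatty acid carriers Cd36 and Fabp4 were far less divided: Cd36 reached 10 CPM in all 58 Sele-positive and 31 of 40 Sele-negative cells (the same after thinning), at 1954 against 3851 CPM, and Fabp4 was 3.69-fold lower in pool3 and 1.23-fold lower in pool4.

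Arterial, tip cell and Notch genes followed the capillary genes. Unc5b, a netrin receptor of arterial and tip endothelium, had no count in the 58 Sele-positive cells and 30.3 and 90.9 CPM in Sele-negative cells of pool3 and pool4. Efnb2, the membrane ligand that marks arteries, had 1.82 and 13.9 CPM in Sele-positive cells, against 89.0 and 69.6 CPM in Sele-negative cells, and reached 10 CPM in 4 of 58 and 13 of 40 cells (3 and 13 after thinning). Gja4, the connexin of arterial junctions, had 0 and 0.841 CPM, against 74.1 and 342.05 CPM, and Hey1, a Notch target, 3.24 and 0.143 CPM, against 53.6 and 246.5 CPM. Of the 7 measured arterial genes 6 were at least 2-fold lower in Sele-positive cells, 5 in both plates, and none higher, with a median of -3.16, genes without a count being at their bound. Trp53i11, Nid2, Esm1 and Cxcr4, genes of tip cells in sprouting vessels, were lower too: Trp53i11 had 0.0253 and 18.2 CPM in Sele-positive cells, against 97.4 and 716.8 CPM in Sele-negative cells. Esm1, the secreted proteoglycan of tip cells, had no count in Sele-positive cells, and in Sele-negative cells it was found in pool4, at 224.1 CPM, and not in pool3. Of the 12 tip cell and angiogenic genes, all measured, 9 were at least 2-fold lower, 5 in both plates, with a median of -4.31 (-1.60 in pool3, -5.16 in pool4). Angpt2 and Mcam, members of that list, were at 0.19 and -0.02. Notch4, an endothelial Notch receptor, was 6.45-fold lower (6.13 to 6.78), and 5 of the 8 measured Notch pathway genes were at least 2-fold lower.

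The remaining genes named as lower were Rbp7, Cyp4b1, Jup, Igfbp3, Anxa6, Dapk2, Cxcl12 and Rflnb, besides Trp53i11, Rgcc, Gpihbp1 and Efnb2. Cxcl12, the chemokine that binds CXCR4, had 94.3 and 104.3 CPM in Sele-positive cells, against 645 and 1138 CPM in Sele-negative cells, and was 8.94-fold lower (8.74 to 9.14). Igfbp3, which binds insulin-like growth factors, had 26.4 and 228.1 CPM, against 622.6 and 2931 CPM. Jup, the junction protein plakoglobin, had 0.887 and 28.7 CPM, against 294.4 and 444 CPM, and Cldn5, the tight junction protein claudin-5, 28.2 and 177.2 CPM, against 412 and 807 CPM. Cldn5 was at 10 CPM or more in 4 of 58 Sele-positive and 21 of 40 Sele-negative cells (4 and 21 after thinning), so it was absent from most cells of the Sele-positive class. Rbp7, a retinol-binding protein, Cyp4b1, a cytochrome P450, and Ednrb, an endothelin receptor, were 31.6-fold, 26.0-fold and 6.09-fold lower.

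MHC class I presentation did not divide the classes, and MHC class II presentation went opposite ways in the 2 plates. Of the 12 genes of MHC class I presentation none was 2-fold apart over both plates, with a median log2 ratio of 0.16, and H2-K1 stood at 4062 CPM in Sele-positive and 3541 CPM in Sele-negative cells. Of the 5 measured genes of MHC class II none was 2-fold apart over both plates together. Their median was -0.71 over both plates, but 0.57 in pool3 and -1.45 in pool4. In Sele-positive against Sele-negative cells the 8 genes of the list summed to 3274 against 2235 CPM in pool3. In pool4 they summed to 1802 against 5205 CPM. Cd74, the invariant chain, had 2207 against 1483 CPM in pool3 and 1223 against 3804 CPM in pool4. Of the 17 measured interferon-stimulated genes 3 were at least 2-fold higher and 3 lower, none of them in both plates. Of the 7 measured CXCR3 ligands and other chemokines, 1 (Cxcl10) was at least 2-fold higher and 4 lower, 2 of these in both plates, with a median of -1.68. Of the 7 measured proliferation genes 3 were higher, all 3 in both plates, against 5.96% of all genes, and 1 was lower. Their median was 0.65 (0.53 in pool3, 1.33 in pool4). At least 2 genes of that list were at 10 CPM or more in 26 of 58 Sele-positive and 16 of 40 Sele-negative cells. Of the 11 basement membrane genes 3 were at least 2-fold lower and none higher, none of them in both plates, and of the 8 measured TGF-beta genes none was 2-fold apart. Immediate early and heat shock genes, which handling of cells can raise, had a median of 0.29, with 1 of 14 (Ier3, at 1.35) at least 2-fold higher and none lower.

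**Figure D3:**
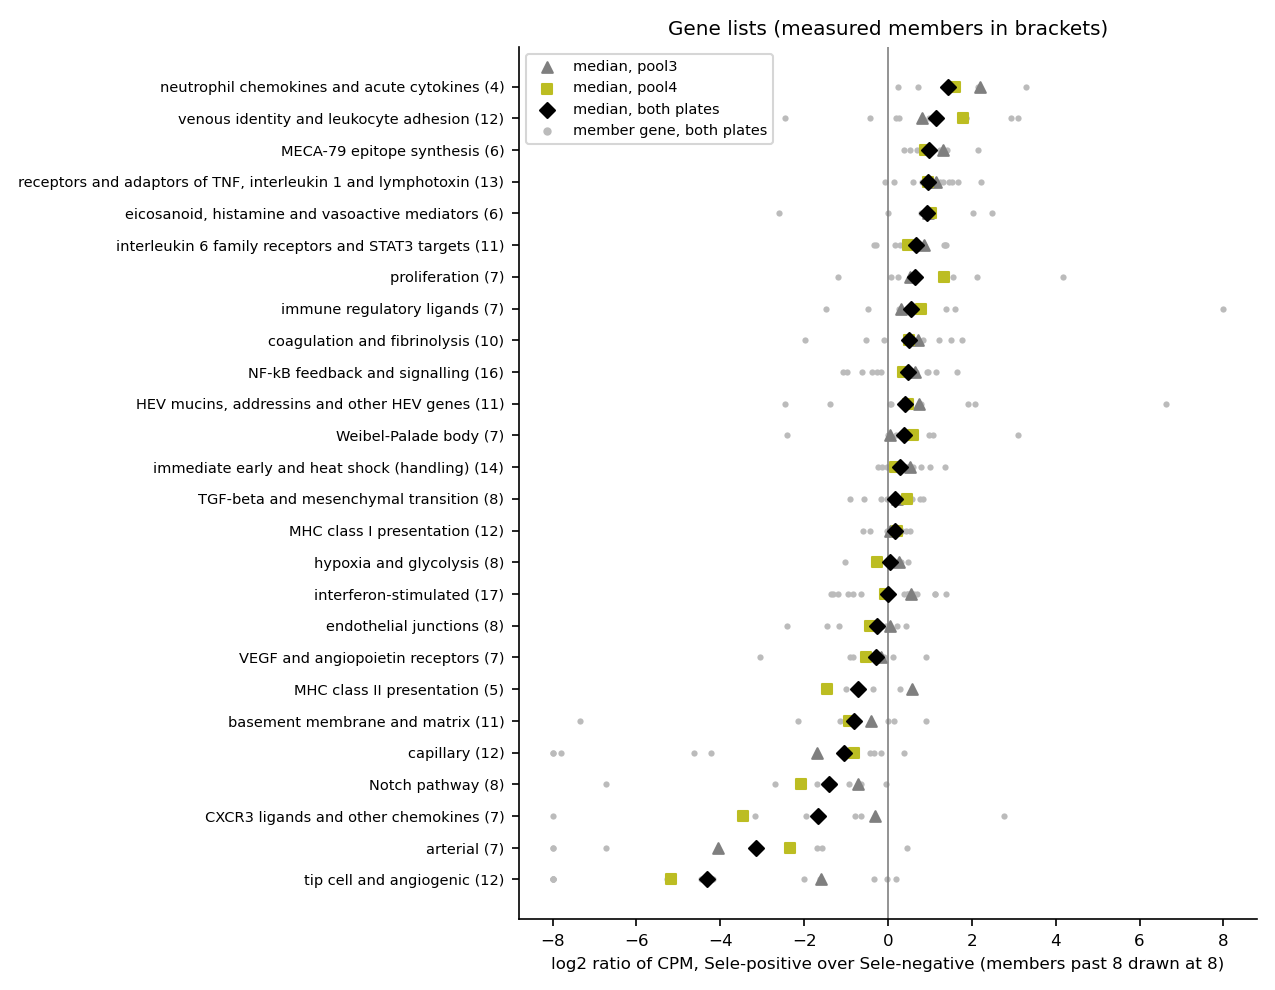
log2 ratio of CPM, Sele-positive over Sele-negative TU_HEV cells, for 26 gene lists, ordered by their median over both plates; grey points are member genes and symbols are list medians over both plates and in each plate; members past 8 are drawn at 8. Venous, cytokine and MECA-79 lists lie above 0, arterial, tip cell, Notch and capillary lists below it, and MHC class I near 0.

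The label of the comparison was inflamed against less inflamed venule cells. By Selp and Ackr1, at 10 CPM or more in 57 and 55 of 58 cells, the Sele-positive class was mostly of venule cells. Its 1 cell below 10 CPM of Selp had no count of Ackr1 and Gpihbp1 at 2042 CPM. Whether the class was inflamed was not tested. Of 16 NF-kB genes 2 were at least 2-fold higher and 1 lower, where 12.5% of all genes were higher. Of 13 measured receptors and adaptors of tumour necrosis factor, interleukin 1 and lymphotoxin 6 were higher and none lower. Of 4 measured neutrophil chemokines and acute cytokines 2 were higher and none lower. The Sele-negative class as a whole was not one of venule cells by these markers. The Sele-negative class held 17 cells with Selp at 10 CPM or more (13 in pool3 and 4 in pool4) and 23 below it (9 and 14), a split made after the values had been seen. Gpihbp1 was at 10 CPM or more in 21 of the 23 Sele-negative cells without Selp, in 4 of the 17 with Selp, and in 4 of the 57 Sele-positive cells with Selp (21, 4 and 5 after thinning). The class is therefore called by its rule, and its composition differs between the plates. Median totals were 1704219 counts in Sele-positive cells with Selp, 1235284 in Sele-negative cells with Selp and 1198892 in Sele-negative cells without it.

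Lrg1, Il6st, Lifr and Vwf were close between the Sele-positive and the Sele-negative cells that had Selp. Lrg1 had 5188 CPM in Sele-positive cells with Selp, 4673 CPM in Sele-negative cells with Selp and 219.5 CPM in Sele-negative cells without it. Il6st had 1623, 1359 and 106.4 CPM in the same order, Lifr 683, 569.9 and 51.9 CPM, and Vwf 817 CPM, 681.6 CPM and 224.4 CPM. The gap of these genes between the classes thus lay mostly between cells with and without Selp. The acute genes behaved otherwise: Vcam1 had 1009, 273.5 and 270.6 CPM, Cxcl10 663, 108.4 and 85.1 CPM, and Il6 387, 72.3 and 93.3 CPM. Immediate early and heat shock genes moved with them among cells with Selp, as given with the list medians. Icam1 had 1199.6, 465.7 and 230.8 CPM, and Csf3 377.2, 94.5 and 0 CPM. Across the Sele-positive cells of pool3 and pool4, rank (Spearman) coefficients with the level of Sele were 0.18 and 0.35 for Vcam1. They were 0.02 and 0.01 for Cxcl10, 0.24 and 0.20 for Il6, -0.06 and 0.34 for Icam1, and 0.38 and 0.12 for Csf3. Among cells with Selp, Vcam1 was at 10 CPM or more in 48 of 57 Sele-positive and 9 of 17 Sele-negative cells (49 and 10 after thinning), Cxcl10 in 29 and 3 (30 and 3) and Il6 in 30 and 5 (31 and 5). Ackr1 and Chst4 were graded, with 3638, 1163 and 0.0982 CPM and 290.2, 159.8 and 0.0982 CPM.

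The arterial, tip cell and part of the capillary genes were found in the Sele-negative cells without Selp. Unc5b, Esm1, Hey1, Efnb2, Igfbp3, Lpl and Nid2 had no count in the 17 Sele-negative cells with Selp, and 101.7, 189.3, 252.2, 131.8, 2987, 698 and 314.5 CPM in the 23 without it. Among cells with Selp alone, Hey1, Efnb2, Igfbp3, Lpl and Nid2 were therefore on the Sele-positive side. Cxcl12 had 98.7 CPM in Sele-positive cells with Selp, 100.7 CPM in Sele-negative cells with Selp and 1424 CPM in those without. Gpihbp1 kept a difference among cells with Selp, at 11.8 against 141.8 CPM, and so did Cldn5, at 21.1 against 65.3 CPM. Over the 7643 genes at 20 CPM or more among cells with Selp, 18.8% were at least 2-fold higher in Sele-positive cells and 18.1% at least 2-fold lower, with a median of -0.07. There the venous and adhesion list, Selp left out, had a median log2 ratio of 0.26, the interleukin 6 receptor list 0.48 and the neutrophil chemokines and acute cytokines 1.19. The immediate early and heat shock list, which handling can raise, had a median of 1.03 there, with 8 of 14 genes at least 2-fold higher and none lower. Atf3, a stress-induced factor of that list, had 734.9 CPM in Sele-positive cells with Selp, 153.9 CPM in Sele-negative cells with Selp and 602.3 CPM in Sele-negative cells without it. The part of handling in the results among cells with Selp was not tested. With 17 cells on the Sele-negative side, 4 of them from pool4, single cells weigh heavily in these values.

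**Figure D4:**
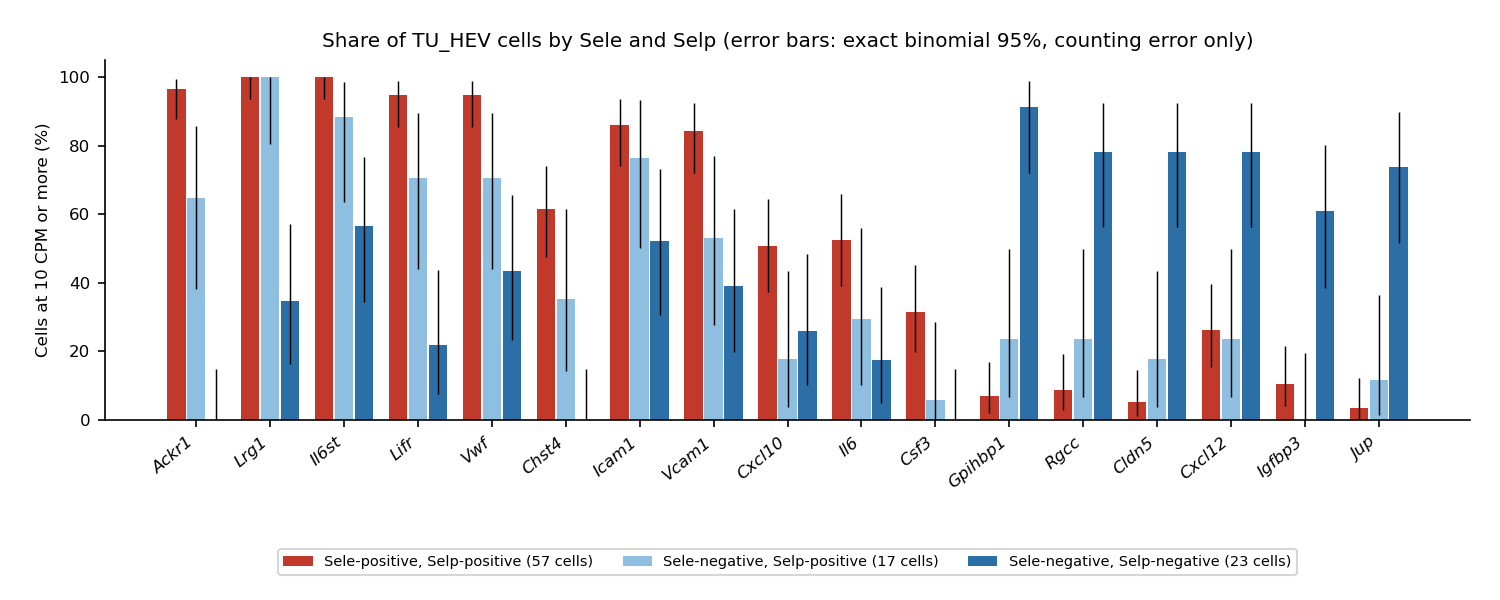
Share of TU_HEV cells with each gene at 10 CPM or more, for Sele-positive cells with Selp (57 cells), Sele-negative cells with Selp (17) and Sele-negative cells without Selp (23), with exact binomial 95% intervals. Lrg1 reaches the level in all cells of the first 2 groups, Vcam1 and Csf3 most often in the first, and Gpihbp1 and Cldn5 most often in the third.

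The same threshold was applied to cells that had no part in the choice of genes. In TU_EC 36 cells, or 11.8% of those kept (exact interval 8.41 to 16.0), were Sele-positive, 6, 8, 15 and 7 in poolA to poolD, and their median total was 786206.5 counts against 608097 in Sele-negative cells. Selp had 1766 CPM in Sele-positive and 16.9 CPM in Sele-negative TU_EC cells, and Ackr1 956 against 12.2 CPM. Icam1 was 9.05-fold higher (8.90 to 9.21), and Selp, Ackr1 and Icam1 were higher in each of the 4 plates. Among the 12 genes of the higher side in TU_HEV, 8 were at least 2-fold higher in Sele-positive TU_EC cells and none lower, where 14.6% of the 6824 genes tested were at least 2-fold higher. Msmo1 was at -0.52 and Lias at 0.45. Of the 12 named as lower, 9 were at least 2-fold lower, where 8.82% of all genes were, and Cyp4b1 alone was at least 2-fold higher, at 3.89. Gpihbp1 had 137.1 CPM in Sele-positive and 1266 CPM in Sele-negative TU_EC cells and was lower in each plate. Of 16 NF-kB feedback and signalling genes 8 were at least 2-fold higher in Sele-positive TU_EC cells and none lower, with a median of 0.93. All 4 measured neutrophil chemokines and acute cytokines were higher, with a median of 4.39. Of 9 receptors and adaptors of tumour necrosis factor, interleukin 1 and lymphotoxin 4 were higher and 1 lower. In the interleukin 6 receptor list 8 of 11 were higher and 1 lower. The capillary list as a whole went the other way from TU_HEV, with 4 of 8 measured genes at least 2-fold higher in Sele-positive TU_EC cells, 2 lower and a median of 0.75. Of 11 proliferation genes 9 were at least 2-fold higher and none lower, with a median of 1.65, and of the 14 immediate early and heat shock genes 4 were higher and none lower, with a median of 0.90. Their part in the other results was not tested. Of the 12 tip cell genes 11 were at least 2-fold lower in Sele-positive TU_EC cells and none higher. The fatty acid genes went the other way from TU_HEV: Cd36 had 502 against 122.6 CPM and Fabp4 1059.9 against 305.1 CPM. Chst4 had no count in TU_EC, which the gate set apart by the absence of the MECA-79 epitope.

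**Figure D5:**
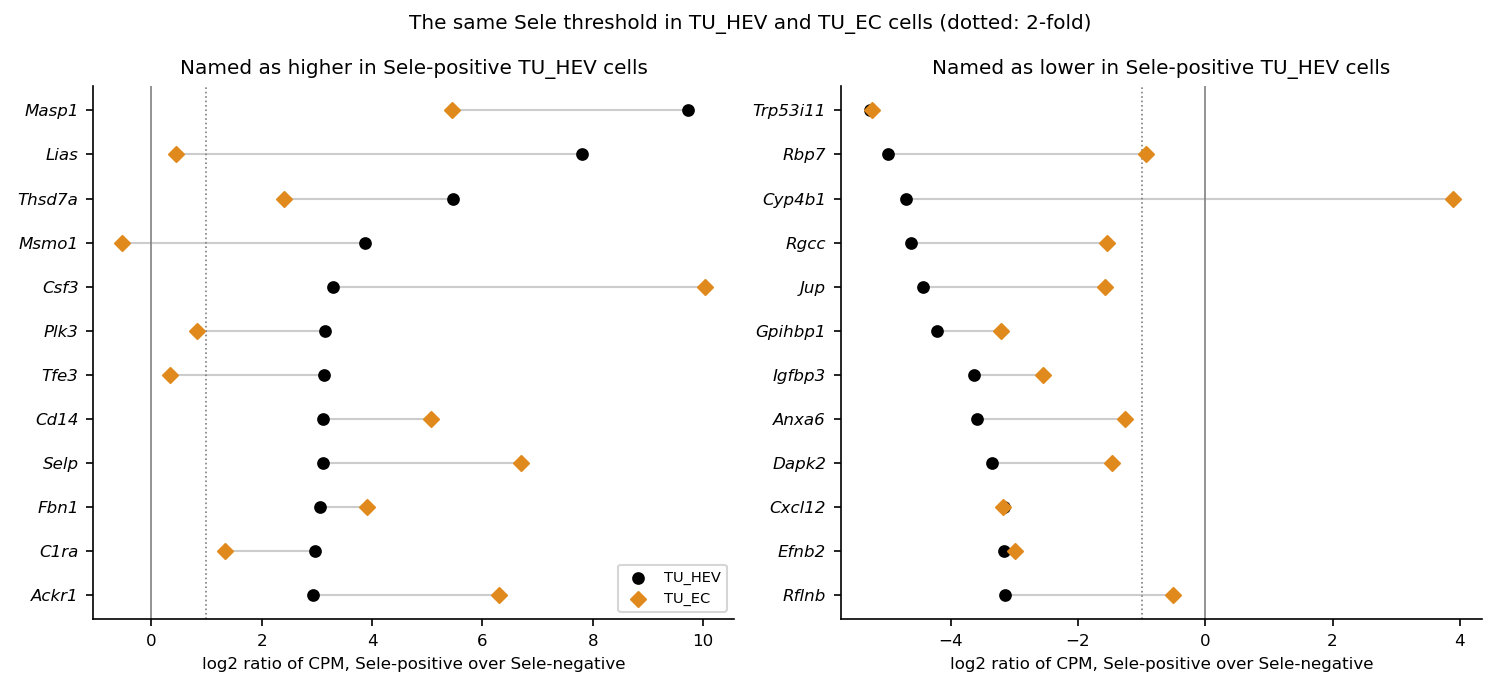
log2 ratio of CPM, Sele-positive over Sele-negative, of the genes named in TU_HEV cells (black), beside the ratio of the same genes under the same threshold in TU_EC (orange). Of the 12 genes on the left 11 lie above 0 in TU_EC, and of the 12 on the right 11 lie below 0.

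In LN_HEV 19 cells were Sele-positive, and 10 of these were libraries that contain counts of TU_HEV libraries. Without such libraries 9 cells, or 6.12% of those left (exact interval 2.84 to 11.3), were Sele-positive. Of the 8 genes named as higher in TU_HEV that were measured there, 3 were at least 2-fold higher, where 21.9% of 7202 genes were, and of the 5 named as lower none was at least 2-fold lower, where 19.5% were. Selp had 113.8 CPM in Sele-positive and 22.6 CPM in Sele-negative LN_HEV cells, but the plates went opposite ways, with 224.3 against 5.10 CPM in pool1 and 21.1 against 34.6 CPM in pool2. Ackr1 had 1019 against 721 CPM over both plates, 438.8 against 504.03 CPM in pool1 and 1505 against 869.5 CPM in pool2. Icam1 had 402 against 453 CPM over both plates, 408.98 against 351.98 CPM in pool1 and 396.7 against 522.5 CPM in pool2, and Csf3 and Il6 had no count in either class. These values rest on 9 Sele-positive cells, and a difference from TU_HEV was not tested.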

How the data were processed

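Single cells were sorted into 96-well plates and each well is 1 library. The authors deposited whole-number counts per gene and library; the submitters' processing notes list the aligner STAR (2.4.1b), Subread (1.4.6-p2), FastQC (0.11.4) and the build mm10. They name neither an annotation nor a strand setting. Full-length libraries carry no molecular identifiers, so reads and not molecules were counted. A cell had to have 50000 counts or more, 1000 genes or more, no more than 30% mitochondrial counts and 2 or more of Pecam1, Cdh5, Tie1, Egfl7 and Eng at 10 CPM or more. Counts were summed over each class, scaled to CPM and compared as a log2 ratio, with a floor of 3 counts. Genes were named as the 12 with the largest ratio each way, with at least 50 CPM and a count in at least 30% of the cells of the higher class, at least 2-fold in each plate and without its highest cell. Intervals are exact at 95% and cover counting error only. For ratios this is the counting of reads and not of molecules. The script was tested on simulated data. Doublets were not called. The members and lists were chosen with earlier results of these data known. Python 3.11.15, numpy 2.4.6, pandas 2.3.3 and scipy 1.17.1 were used.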

Additional observations from a re-analysis of the deposited data

How the results depend on the processing

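Genes at least 2-fold apart in both plates, 5.96% higher and 6.56% lower in Sele-positive cells, depended on several settings. They were 3.70% and 5.62% of genes with at least 50 CPM in a class, 8.08% and 9.23% with no filter beyond 3 counts, and 3.75% and 2.23% without the highest cell of the higher class, gene by gene. A single plate moved them most, to 19.7% and 20.5% without pool3 and 20.2% and 22.0% without pool4, since fewer conditions then had to be met. Under the other planned settings the counts lay between 386 and 572 higher and between 484 and 589 lower, and the Sele-positive share between 55.1% and 62.5% wherever it was recomputed. The 24 named genes kept direction and 2-fold in all 408 planned values, but many of these could not have moved. The naming rule fixed those for single plates and without the highest cell. Filters on the level of a gene left its ratio as it was. Leaving out cells with markers of other cell types removed none, and calling Sele on thinned cells left the classes as they were. Sele at 5 CPM or more and any count of Sele gave the same classes as each other. Apart from the naming rule, these limits hold for the other genes in the text too. Those genes kept direction in 1249 of 1275 planned values, and direction with 2-fold in 761. List medians kept direction in 426 of 442. The log2 ratio of Madcam1, -2.45 in all cells, was 4.16 without pool3 and 4.21 without the highest cell. In cells with Selp alone, a setting chosen after seeing the data, 11.8% of genes were higher and 5.68% lower, and these negative log2 ratios turned positive, a class without a count being at its floor: Rbp7 2.31, Cyp4b1 2.08, Igfbp3 9.71, Efnb2 5.95, Ednrb 6.35, Lpl 3.72, Hey1 3.31, Dll4 1.33, Nid2 6.05 and Notch4 0.59. So did the medians of the arterial list at 0.82, the tip cell list at 0.23 and the Notch list at 0.39, and the cause was not tested. Depth differed between the classes. With every cell thinned to 100000 counts, 568 genes were at least 2-fold higher in both plates and 503 lower. Not all of these were among the genes called at full depth. Beyond that, the part of depth in these results was not tested. No paired analysis was possible because both classes are cells of 1 sample, the replicate numbers only name wells and no test was run; ratios within each plate stand in the report.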
